A study of Mus musculus with 12 samples.

Results

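Of 462890 nuclear CpGs listed with at least 5 reads in each of 10 reduced-representation bisulfite sequencing (RRBS) libraries, 1893 (0.409%) had 100 or more reads in every one of the 10. These extremely deep CpGs, chosen by their read counts alone, are described here by position, sequence, read share and DNA methylation (DNAme) level, which is the share of reads with an unconverted C. Their depth and read share are therefore given as descriptions without a test, while their DNAme level took no part in the choice. All libraries came from Pkd1 heterozygous proximal renal tubule epithelial cells (PKD1-Het cells) isolated from Pkd1 flox/-:TSLargeT mice and used at passage 3, so the vehicle controls also carry the Pkd1 genotype and the large T transgene. Cells were exposed for 24 h to PBS, to Aza at 50 µM (5-aza-2′-deoxycytidine, an inhibitor of DNA methyltransferases), to F-MTAza, in which the same Aza dose was given free in solution with metformin (300 µM) and tolvaptan (10 µM), or to NP-MTAza, where micelles carried these doses. Each group had 3 libraries. The labels do not say whether replicates were separate cultures, so p-values measure the spread between these libraries only. Genomic reads of repeats hold no marker of the cell type, which was not checked here.

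Satellite DNA is made of short units repeated head to tail. In the mouse the major satellite forms pericentromeric heterochromatin, and the minor satellite is the centromeric repeat on which the kinetochore is built, in part through the CENP-B protein, which binds a short box within it. Ribosomal DNA encodes the ribosomal RNA precursor in many copies, some of them methylated and silent. A reference genome holds only a few of these copies, so reads from all of them pile up on the same positions. Bisulfite reads cannot tell an unmethylated C from a T that some copies carry in its place, so a level at such a position is an average over copies and their variants.

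The sequences below, from the mm9 reference on its plus strand, show the kinds of repeat that held most reads, with each deep CpG in capitals. The first pair is 1 unit length each, from the major satellite array on chromosome 9 and from the chr2 stretch, where the first 2 deep CpGs are classed as minor satellite and the rest as major. The chromosome 9 array repeats every 234 bp with 77.1% of bases equal 1 period apart. The second pair is the minor satellite with its 120-bp period (84.0% equal), and the last is the densest 200 bp of the ribosomal DNA cluster.
major satellite, chr9:3024376-3024609: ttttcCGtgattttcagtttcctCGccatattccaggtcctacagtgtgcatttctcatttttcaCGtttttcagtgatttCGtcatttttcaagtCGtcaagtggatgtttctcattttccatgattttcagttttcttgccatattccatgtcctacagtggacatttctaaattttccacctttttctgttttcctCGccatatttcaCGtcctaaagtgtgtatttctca
minor and major satellite, chr2:98506655-98506888: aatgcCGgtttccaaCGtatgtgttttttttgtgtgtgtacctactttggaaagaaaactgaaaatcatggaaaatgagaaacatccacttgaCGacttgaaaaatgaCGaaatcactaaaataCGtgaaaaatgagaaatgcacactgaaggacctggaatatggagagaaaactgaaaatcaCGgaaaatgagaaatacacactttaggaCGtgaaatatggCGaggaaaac
minor satellite, chr2:98505151-98505390: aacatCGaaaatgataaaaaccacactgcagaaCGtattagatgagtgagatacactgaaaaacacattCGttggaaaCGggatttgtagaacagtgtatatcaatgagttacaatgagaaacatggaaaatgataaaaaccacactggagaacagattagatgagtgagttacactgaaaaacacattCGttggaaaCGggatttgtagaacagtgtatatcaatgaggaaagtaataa
minor satellite, chr6:103599044-103599283: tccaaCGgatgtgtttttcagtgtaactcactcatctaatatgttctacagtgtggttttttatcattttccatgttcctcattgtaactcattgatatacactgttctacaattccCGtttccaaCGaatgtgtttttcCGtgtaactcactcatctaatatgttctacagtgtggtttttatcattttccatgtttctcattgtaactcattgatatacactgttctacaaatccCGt
ribosomal DNA, chr17:39981105-39981304: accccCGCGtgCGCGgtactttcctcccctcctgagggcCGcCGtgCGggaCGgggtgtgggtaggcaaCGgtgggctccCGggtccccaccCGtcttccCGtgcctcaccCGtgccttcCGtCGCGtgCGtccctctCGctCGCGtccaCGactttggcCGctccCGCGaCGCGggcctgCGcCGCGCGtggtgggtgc
The 7 deep CpGs of the chromosome 9 window averaged 87.0% DNAme in PBS and 57.5% in the 6 combination (F-MTAza and NP-MTAza) libraries. The 30 in the ribosomal window averaged 43.4% and 29.7%.

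The 1893 CpGs lay in 478 clusters (members within 1000 bp of the next were joined) on 21 chromosomes or contigs. Single CpGs made up 195 clusters, and 192 held 3 or more members. Chromosome 17 had 370 members, chromosome 9 had 289 and chromosome 2 had 140. By alignment to a reference array of each of those 3 repeats, 294 members were major satellite (13 clusters), 28 minor satellite (5 clusters) and 332 ribosomal DNA (2 clusters). A further 19 lay on an unplaced contig that the reference used here does not hold. The 1220 remaining members lay in 458 clusters. The label of collapsed repeats held by reads more than by positions. Of 1872 members on the reference, 833 (44.5%) lay in windows whose 20-base words occurred at least 2 times in the genome, against 12.9% of the other CpGs. Of the 156 members with 1000 or more reads everywhere, 95.3% of those on the reference did. The ribosomal members counted mostly as unique, 59 of 332 being repeated, because mm9 holds this part of the unit about once.

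The satellites carried nearly all the reads. Major satellite members held 59.1% of the reads over all members in the 10 libraries, minor satellite members 33.8%, ribosomal DNA 2.47% and the remaining members 4.32%. The stretch on chromosome 2 from 98502421 to 98507482, with 61 members in 3 clusters, alone held 71.0%, and the 10 deepest clusters held 94.2%. As a share of all nuclear CpG reads, members took 18.4%, 25.6% and 18.6% in PBS replicates 1, 2 and 3. The share was 25.3% in Aza replicate 3, 30.4%, 27.7% and 30.4% in F-MTAza, and 26.8%, 25.1% and 25.4% in NP-MTAza. The satellites did not keep 1 ratio between libraries. PBS replicate 2 had 18.8% of its reads on the minor satellite and 4.84% on the major, whereas PBS replicate 3 had 4.44% and 12.4%. The major share was 8.60% ± 3.77 (SD, n = 3) in PBS and 21.4% ± 1.505 (n = 3) in F-MTAza. Whether library preparation or cell DNA set these shares was not tested.

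**Figure D1:**
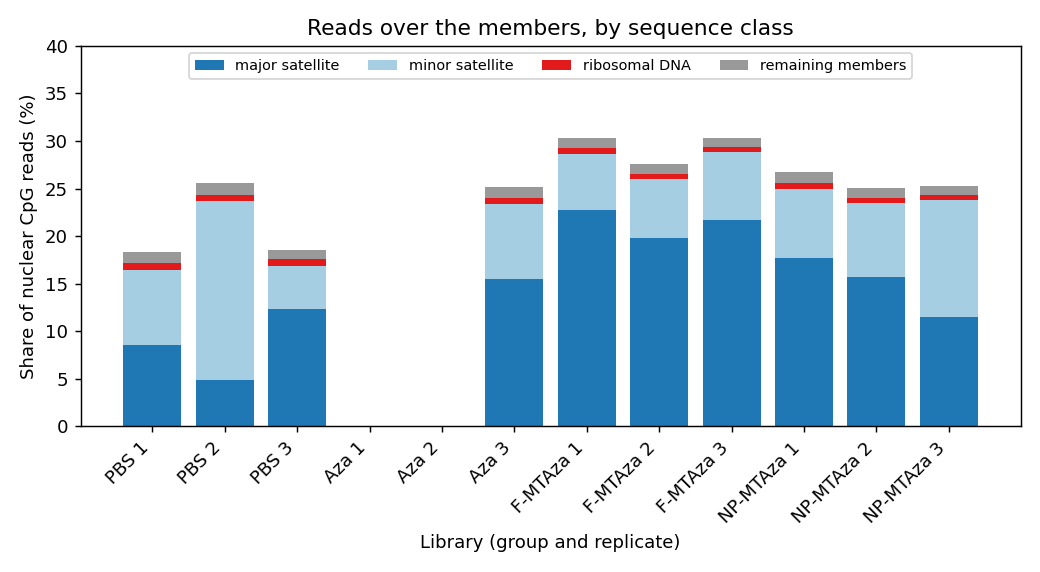
Share of all nuclear CpG reads (y axis, percent) that fell on members in each of the 12 libraries (x axis), with colours for the 4 sequence classes. Shares run from 18.4% to 30.4% in 10 libraries, and Aza replicates 1 and 2 stand near 0.

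Aza replicates 1 and 2 stood apart. They listed 632 and 528 of the members at a median of 7 and 8 reads, and members took 0.0164% and 0.0179% of their reads. Over members, read counts of the 10 libraries correlated with each other at a median r of 0.888 across 45 pairs (0.533 to 0.983), but theirs with the 10 at 0.0930 across 20 pairs. The correlation is across CpGs that share libraries and fragments. The rule left both libraries out, and Aza is represented by replicate 3 with no replicate check. Total CpG reads ran from 25336747 to 65817118 in the 10 libraries. At 100 reads, the depth that chose a member, a level of 50% has a 95% Wilson interval of 40.4% to 59.6%, which covers counting error only, as reads are PCR products without molecular identifiers. Over members at 10% to 90% DNAme, the median SD between PBS replicates was 3.02 points, against 1.93 expected from counting.

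DNAme over the members fell in every drug-treated library. The mean over 1893 CpGs, each counted once, was 66.6%, 68.5% and 66.4% in PBS and 43.3% in Aza replicate 3. It was 44.3%, 44.6% and 44.7% in F-MTAza and 43.0%, 43.4% and 41.5% in NP-MTAza. No treated library came within 20 points of a PBS library. The 7 treated libraries averaged 23.6 points below PBS, which is 35.1% of the PBS level. By exact permutation of the library means, two-sided here and throughout, p was 0.00833, and 7 libraries against 3 cannot give a smaller one. F-MTAza was 22.6 and NP-MTAza 24.5 points below PBS, each with p = 0.10 by the exact permutation test, the smallest that 3 against 3 allows. NP-MTAza averaged 42.6% ± 0.99 (SD, n = 3) and F-MTAza 44.6% ± 0.19 (n = 3), a gap of 1.94 points in which the groups did not overlap (exact permutation p = 0.10). Without NP-MTAza replicates 1 and 2, which carried 2 barcode sets, the gap was -3.05 points (p = 0.25, exact permutation, the smallest possible), and weighted by reads it was -3.30.

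**Figure D2:**
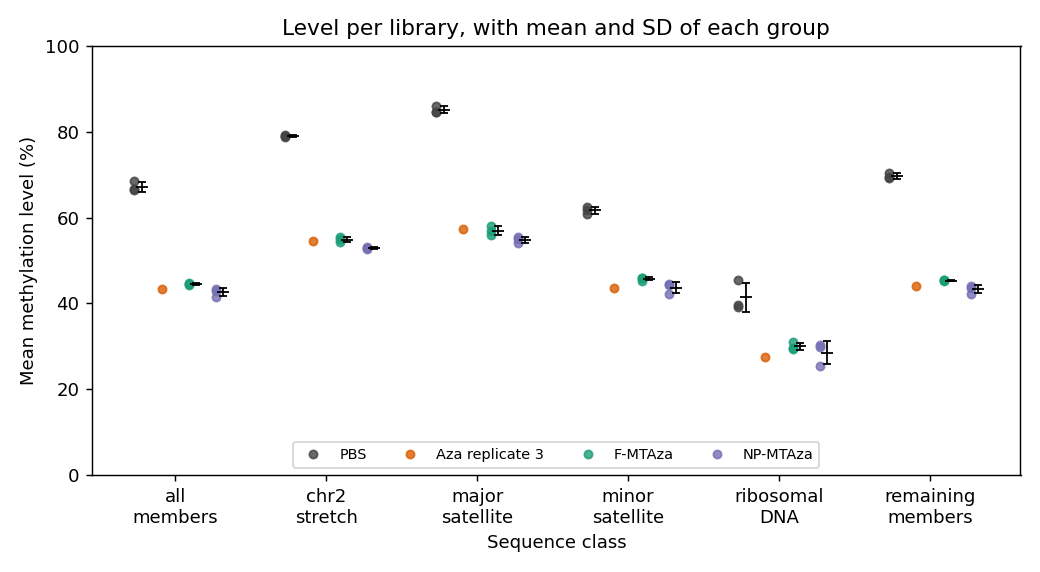
Mean DNAme level (y axis, percent) over all members, the chr2 stretch and the 4 sequence classes (x axis). Each point is 1 library and black bars give the mean and SD of groups of 3. In every class the PBS libraries lie above all treated ones, as for all members (66.4% to 68.5% against 41.5% to 44.7%).

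The high end of the distribution emptied. In PBS, 634 members (33.5%) were at 90% or more and 139 (7.34%) below 10%. In the mean of the combination libraries 2 members were at 90% or more, 502 lay between 50% and 60%, and 175 (9.24%) were below 10%. Of the 342979 other CpGs with at least 50 pooled PBS reads, 45.8% were at 90% or more in PBS and 0.264% in the combination libraries, and 19.1% and 21.3% were below 10%. Members were more often intermediate than those CpGs in PBS, with 59.2% between 10% and 90% against 35.1%.

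The chr2 stretch, an array of satellite fragments that also carries the predicted genes Gm10801 and Gm10800, lost about as many points as the average member. Its 61 CpGs averaged 78.9%, 78.8% and 79.2% in PBS, 54.5% in Aza replicate 3, 54.3%, 55.4% and 54.9% in F-MTAza, and 52.7%, 53.1% and 52.8% in NP-MTAza. PBS replicates agreed within 0.17 points (SD), and the 6 combination libraries lay 25.1 points lower (exact permutation p = 0.0119, the smallest for 6 against 3). Its satellite classes differed along its length. The 40 major satellite CpGs averaged 86.6%, 87.3% and 86.7% in the PBS replicates, and the 21 minor satellite CpGs 64.3%, 62.7% and 64.7%. Among the major satellite CpGs, those from 98506748 to 98507482 lay between 85.1% and 93.8% in PBS and between 52.7% and 66.0% in the combination libraries. A single major satellite CpG at 98503060 had 7.06% in PBS and 1.52% in the combination libraries while its neighbour at 98503068 had 93.7% and 66.0%.

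**Figure D3:**
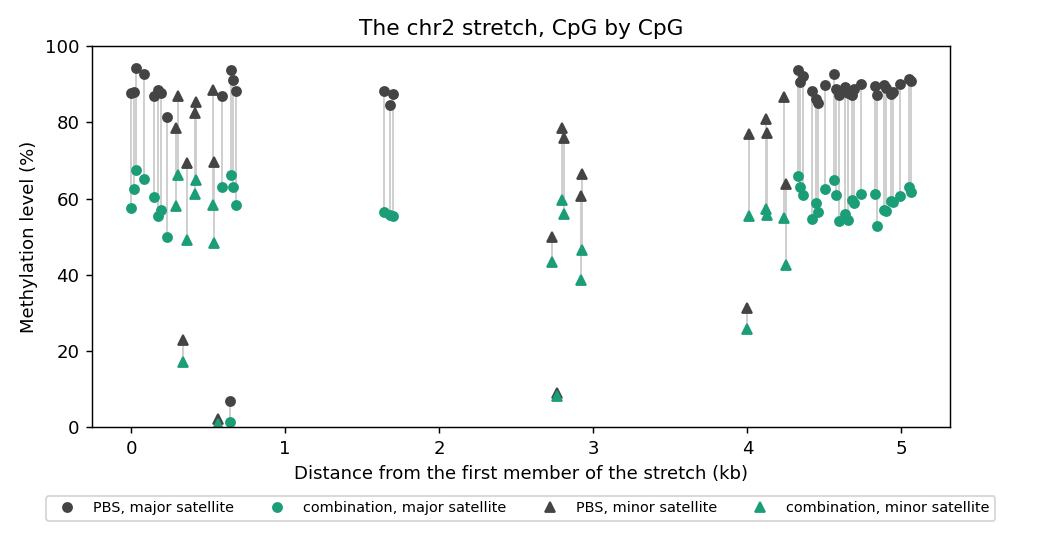
DNAme level (y axis, percent) of the 61 CpGs of the chr2 stretch against distance from the first (x axis, kb). Black marks are the mean of 3 PBS libraries, green marks the mean of 6 combination libraries, circles major and triangles minor satellite, and grey lines join the marks of 1 CpG. Most CpGs drop by 20 to 35 points and a few CpGs, mostly minor satellite, are low in both.

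Minor satellite CpGs were uneven. The class mean was 61.7% ± 0.88 (SD, n = 3) in PBS, 45.8% ± 0.41 (n = 3) in F-MTAza, 43.7% ± 1.26 (n = 3) in NP-MTAza and 43.6% in Aza replicate 3. Single CpGs ranged from 0.235% to 88.6% in PBS. Of the 28 members, 12 were CpGs of a CENP-B box (the consensus was searched on both strands), and the windows of 15 members, 50 bases to each side, held the box, against 0.0256% of the windows of 460256 other CpGs. None of the 294 major satellite, 332 ribosomal or 1220 remaining members had the box in its window. In the boxes DNAme was 77.8% ± 1.47 (SD, n = 3) in PBS and 57.1% ± 2.18 (n = 6) in the combination libraries, and every box CpG lost between 18.9 and 23.5 points. Outside the boxes losses ran from -0.147 to 31.9 points. The box CpGs at chr6:103599161 and chr6:103599170, in an intron of the cell adhesion gene Chl1, went from 79.7% to 59.5% and from 81.3% to 61.1%. The highest PBS level, 88.6% at chr2:98502951, lay outside a box and went to 58.3%. The next, 86.9% at chr2:98502722, lay in a box and went to 66.1%, and chr2:98506660, outside a box, went from 86.7% to 54.8%. One CpG, chr2:98505156, had a PBS SD of 29.4 points, the largest among all members. Its own loss is not interpreted, but it stays in the means of the class and of the chr2 stretch. The box was looked for after the levels of the class had been seen, so its CpGs are described without a test.

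Major satellite CpGs were highly methylated in PBS. The class averaged 84.7%, 86.1% and 84.7% in PBS, 57.3% in Aza replicate 3, 56.0%, 58.0% and 57.0% in F-MTAza, and 54.0%, 55.0% and 55.5% in NP-MTAza. Treated libraries were 29.0 points lower on average (exact permutation p = 0.00833), 34.1% of the PBS level. On chromosome 9 the clusters from 3000031 to 3004824 (76 members, 84.9% to 55.5%) and from 3020248 to 3030205 (93 members, 84.2% to 55.1%) lost 29.4 and 29.1 points between PBS and combination means. Those at chr9:35112827-35113167 and chr12:3109883-3110099 lost 29.7 and 30.3 points. The cluster at chr9:3017134-3018946 lost 29.8. The first 4 overlap or lie near predicted gene models (Gm10722, Gm11167, Gm5614 and the pseudogene Gm9075), of which nothing is asserted here.

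Ribosomal DNA was the least methylated class and lost the fewest points. Its 332 CpGs averaged 39.7%, 45.4% and 39.3% in the PBS replicates, so replicate 2 lay nearly 6 points above the others. They averaged 27.5% in Aza replicate 3, 29.6%, 29.4% and 30.99% in F-MTAza, and 30.3%, 29.97% and 25.4% in NP-MTAza. No treated library reached the lowest PBS library, and the mean was 12.4 points lower (exact permutation p = 0.00833). NP-MTAza and F-MTAza overlapped here (exact permutation p = 0.60). The main cluster, chr17:39979971-39985654, holds 318 members and overlaps the pseudogene AY036118. Its members ran from 14.4% to 60.7% in PBS with a median of 42.7%, and none was near 0% or 100%. In bins of 500 bp the PBS mean was lowest at the start (34.6% ± 6.24, SD, n = 3) and highest 3000 bp on (49.1% ± 5.30, n = 3). The loss per bin ran from 7.22 to 15.5 points. The second cluster, 14 members at chr6:3151432-3151576, went from 42.9% to 28.5%.

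**Figure D4:**
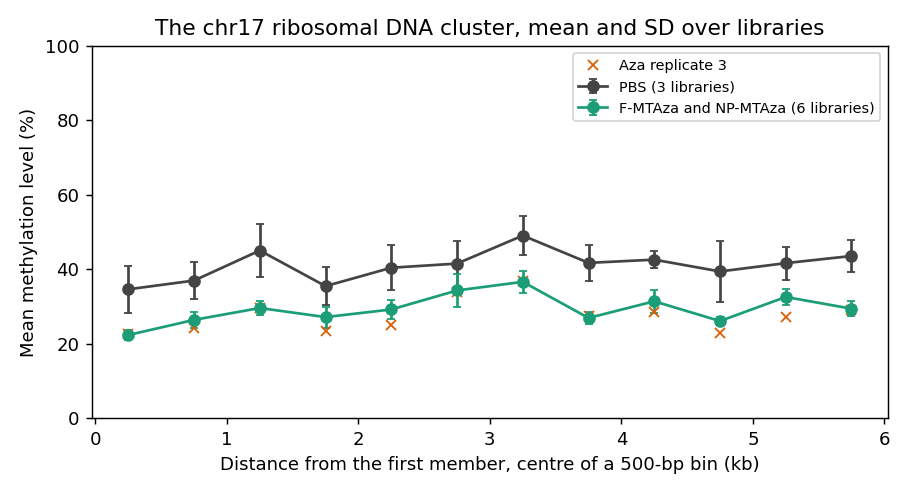
Mean DNAme level (y axis, percent) in 500-bp bins along the chr17 ribosomal DNA cluster (x axis, kb from its first member). Lines are means of 3 PBS and 6 combination libraries with SD, and crosses are Aza replicate 3. PBS lies at 34.6% to 49.1% and the combination at 22.3% to 36.6% over all bins.

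The 1220 remaining members were spread over 395 bins of 1 Mb, 15 of which held 10 or more. In the bin with the most, chr11 at 3 Mb with 41 members around Sfi1, a centrosomal gene with many copies, members had a median of 366 reads and the 819 other CpGs 17. The exception among the 10 fullest bins was the end of the X chromosome around Mid1, a ubiquitin ligase gene across the pseudoautosomal boundary, where the 391 other CpGs had 46 reads. Depth fell off over short distances, from a median of 95.5 reads in other CpGs within 50 bp of a remaining member to 20 at over 500 and up to 1000 bp, against 15.5 for all other CpGs. By the annotation, 12.2% of them lay in promoters (2000 bp before to 500 after a start), 9.59% in other exons, 31.1% in introns and 47.0% between genes. For the other CpGs these shares were 19.4%, 14.8%, 33.8% and 32.03%. Mean DNAme was 69.4%, 70.4% and 69.1% in PBS, 44.0% in Aza replicate 3, 45.4%, 45.4% and 45.3% in F-MTAza, and 43.6%, 44.1% and 42.3% in NP-MTAza, 25.4 points lower with treatment (exact permutation p = 0.00833).

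Of 192 clusters with at least 3 members, 175 had a PBS level of 20% or more, and in 173 of these all 6 combination libraries lay below all 3 PBS libraries. How often this holds in groups of other CpGs was not worked out, so the count is not read as a trait of these clusters. The median loss of the 175 was 28.4 points, from 7.48 to 53.2. The clusters with the largest and the next to smallest loss are shown as examples of that range, with deep CpGs in capitals.
largest loss, chr15:6367361-6367480: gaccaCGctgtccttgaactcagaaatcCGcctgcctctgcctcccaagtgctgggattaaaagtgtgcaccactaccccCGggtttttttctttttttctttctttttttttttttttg
small loss, chr3:5860418-5860537: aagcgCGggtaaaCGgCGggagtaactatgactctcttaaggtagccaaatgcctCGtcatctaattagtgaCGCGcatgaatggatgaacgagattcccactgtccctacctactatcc
The first lies in an intron of Dab2, an endocytic adaptor of the proximal tubule, in a window whose words occur a median of 1464 times in the genome. Its 3 CpGs had 88.3%, 86.1% and 84.6% in PBS, 34.6% in Aza replicate 3, 35.6%, 32.5% and 35.4% in F-MTAza, and 30.4%, 32.6% and 32.5% in NP-MTAza, a loss of 53.2 points. A second Dab2 cluster, 16 CpGs of an exon at chr15:6336830-6337170, was among the 5 with the smallest loss. It went from 28.8%, 32.4% and 25.8% in PBS to between 15.6% and 20.5% in the combination libraries. Other large losses were 44.1 points in an intron of Mrpl14, a mitochondrial ribosomal protein gene, and 43.0 points at chr5:65131564-65131976, far from any gene start. The words of the Mrpl14 windows occur a median of 4223 times in the genome, so that level is an average over copies.

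The smallest loss was at Hjurp, which encodes the chaperone that places CENP-A at centromeres. Its 12 CpGs at chr1:90174077-90174168, in the exon at the gene's start, had 54.0%, 48.0% and 48.0% in PBS, 40.6% in Aza replicate 3, 38.0%, 45.6% and 49.3% in F-MTAza, and 36.6%, 44.0% and 41.7% in NP-MTAza. The groups overlapped, through F-MTAza replicate 3. The chr3 cluster printed above lost 8.95 points, from 39.2% ± 4.63 (SD, n = 3) to 30.2% ± 4.404 (n = 6), also overlapping. Ribosomal sequence beyond the part of the unit in the chr17 cluster was not searched for, so the remaining class may hold some. A pair of intergenic clusters on chromosome 18 was also among the largest losses, from 89.1% to 44.1% and from 88.6% to 46.1%. Clusters near the splicing factor gene Sf3b5 and the homeobox gene Lbx1 lost 10.6 and 10.9 points from 24.0% and 25.2%.

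Among multicopy genes, 4 clusters in Sfi1 lost 24.8 to 31.6 points. In Dux, a homeobox gene of the early embryo, 4 CpGs went from 83.4% ± 0.98 (SD, n = 3) to 55.2% ± 6.15 (n = 6). In an exon of Mid1, 16 CpGs at chrX:166427842-166428106 had 96.5%, 97.2% and 96.7% in PBS, 70.8% in Aza replicate 3, 86.1%, 78.4% and 80.8% in F-MTAza and 79.2%, 77.1% and 72.4% in NP-MTAza. The other Mid1 clusters went from 40.1% to 26.9% (2 CpGs) and from 96.8% to 69.9% (1 CpG), so that the 3 clusters lost 18.4%, 32.9% and 27.8% of their PBS level. The highest PBS levels were near Pde8b, a phosphodiesterase gene (98.4% to 72.5%), in B3galtl, a glucosyltransferase gene (98.2% to 67.4%), and in Shank3, a scaffold gene (98.1% to 73.2%). Among the lowest were clusters at or near the starts of Agap1, a GTPase-activating protein gene, and Samd1, with 0.810% and 0.963% in PBS. There PBS replicate 2 read 1.61% and 2.14%, and the highest of the other 9 libraries was 0.443% and 0.466%. Over the 139 members under 10% in PBS, replicate 2 averaged 4.11% and each of the other 9 libraries 0.962% to 1.62%. The higher floor of that library moves with the PBS mean in every low class, and its part was not tested.

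Tested CpG by CpG, the share of members called lower was under or over that of all CpGs depending on the size threshold and the tool. A call needed a difference of at least 35 points and q under 0.01, where pooled methylated and unmethylated reads of the groups were compared by likelihood ratio and p was adjusted over all nuclear CpGs tested. In F-MTAza 282 of 1893 members (14.9%) were called lower, against 22.0% of the 512768 CpGs tested, and in NP-MTAza 411 (21.7%) against 25.9% of 815679. No member was called higher, where the shares over all CpGs were 0.00449% and 0.00478%. Without satellite and ribosomal members, 274 of 1239 (22.1%) and 393 of 1239 (31.7%) were called lower. By class, 8 and 18 of 294 major satellite members were called in F-MTAza and NP-MTAza, 0 and 0 of 28 minor satellite, 0 and 0 of 332 ribosomal and 273 and 390 of 1220 remaining members. The size threshold set these counts, since without it 26 minor satellite and 306 ribosomal members had q under 0.01 in F-MTAza, and 1753 of all members against 48.9% of all CpGs. In NP-MTAza 1790 members did, against 53.2%. Higher at q under 0.01 were 0 members in F-MTAza and 2 in NP-MTAza (backgrounds 0.0482% and 0.0428%). Most ribosomal CpGs began near 40%, where a loss of 35 points leaves almost nothing. All 3 F-MTAza libraries lay below all 3 PBS libraries at 1688 members (background 47.2%) and all 3 NP-MTAza libraries at 1681 (51.2%). They lay above at 2 members in each (0.122% and 0.111%). Members have far more reads than the background, and how far depth sets the shares of CpGs without overlap was not tested. An F test with an overdispersion estimate per CpG called 0 members and 0 of all CpGs, with 1528 and 1583 members at an unadjusted p under 0.05, against 39.4% and 42.99% of all CpGs. By limma 282 and 411 members were called, as many as by the likelihood ratio test, against 8.62% and 10.3% of the 462890 CpGs it tested. There the members' share was the larger. The members were chosen for their depth, and how far depth sets this order was not tested. The order also turned at a threshold of 25 points, where 926 members (48.9%) were called in F-MTAza and 1031 (54.5%) in NP-MTAza, against 39.95% and 45.2% of all CpGs.

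NP-MTAza and F-MTAza did not differ by 35 points at any member. The likelihood ratio test called 0 of 1893 (backgrounds 0.0203% lower and 0.0106% higher), with 673 members at an unadjusted p under 0.05, 173 by the F test and 115 by limma. Over all CpGs tested those shares were 11.7%, 1.49% and 6.43%. All NP-MTAza libraries lay below all F-MTAza libraries at 335 members and above at 33, where the backgrounds were 4.95% and 3.14%. Of the 294 major satellite members, 126 were in the first group and 0 in the second. Without the size threshold, 148 members were lower in NP-MTAza at q under 0.01 (background 0.05%), 110 of them major and 20 minor satellite, and 1 was higher (background 0.0113%). The likelihood ratio test pools the reads of a group, and members have far more reads than the background, so small differences pass more easily there. How far depth sets these shares was not tested. In Aza replicate 3, 350 members (18.5%) were at least 35 points below the PBS mean, against 30.8% of 1016422 CpGs, and 1765 lay below all PBS libraries, against 64.5%.

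Compared with other CpGs of the same PBS level, the loss of members as a whole differed by less than the spread between libraries, and so did that of the major satellite, while the other classes differed in both directions. The others were weighted so that their shares over 10-point classes of PBS level equalled those of the members. The classes came from the pooled reads of the 3 PBS libraries that also served as controls. This holds the mean gap in PBS small, so PBS and treated libraries were not handled alike, and the p-values carry that limit. Members lost 23.6 points and the weighted others 23.3 in the 7 treated libraries. The gap between them was -0.27 ± 0.28 points (SD, n = 3) in PBS and -0.55 ± 0.70 (n = 7) with treatment (exact permutation p = 0.55). The sign of that small difference turned under several other settings, and with each of the 478 clusters counted once instead of each CpG the members lost more than the others, by -2.49 points (exact permutation p = 0.00833).

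Minor satellite CpGs lost less than other CpGs of their level. They lost 17.1 points and the others 22.2, and the gap rose from 0.40, -2.47 and 1.25 points in the PBS replicates to between 3.75 and 5.32 points in the 7 treated libraries. The difference of 5.04 points had p = 0.00833 (exact permutation, 0.0306 after adjustment over 11 sets) and lay between 3.95 and 6.86 under 18 alternatives. The 12 box CpGs lost 21.0 points where others of their level lost 27.4, and the 16 outside a box lost 14.2 against 18.2. For the box CpGs the gap was -0.26 to 1.17 points in PBS and 5.03 to 8.46 in the treated libraries. Outside a box it was -0.18, -5.06 and 2.38 in the PBS replicates and 2.35 to 3.69 with treatment, so PBS and treated libraries overlapped there.

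Ribosomal CpGs lost 12.4 points against 15.1, a difference of 2.70 points (exact permutation p = 0.025, adjusted 0.0458). This did not hold when the others were matched on CpG density too, as ribosomal windows held a median of 11 CpGs and those of other CpGs 4. The difference was then 0.42 points (exact permutation p = 0.65). It also lost its call without PBS replicate 1 (2.14 points, exact permutation p = 0.111), PBS replicate 3 (2.15, p = 0.111), F-MTAza replicate 1 (2.71), F-MTAza replicate 3 (2.52) or NP-MTAza replicate 2 (2.59, each of these p = 0.0595 by exact permutation).

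Major satellite CpGs lost 29.0 points against 29.8, a difference of 0.70 points (exact permutation p = 0.55). It was 0.19 to 1.01 when 1 library was left out, and 2.16 with other CpGs of 300 or more pooled PBS reads (exact permutation p = 0.0417). Aza replicate 3 had the largest gap, 3.51 points. The chr2 stretch, which mixes both satellites, differed by 2.59 points from others of its level (exact permutation p = 0.0167, adjusted 0.0367), and missed the threshold when any PBS library was left out (2.74, 2.10 and 2.95 points, exact permutation p = 0.0556, 0.0833 and 0.0556).

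The remaining members lost more than other CpGs of their level, 25.4 points against 23.9. The gap was -0.24, -0.52 and -0.47 points in PBS, -0.53 in Aza replicate 3 and from -2.35 to -1.22 in the combination libraries, a difference of -1.44 points (exact permutation p = 0.00833, adjusted 0.0306). It was -1.47 in the 756 with unique words and -1.38 in the 464 with repeated words (exact permutation p = 0.00833 and 0.0917). The difference over all remaining members missed the threshold with classes from PBS replicate 3 alone and that library left out of the controls. In the 80% to 90% class of PBS level the loss was 29.8 points in CpGs with 5 to 19 reads in their shallowest library, 31.6 at 20 to 49, 33.8 at 50 to 99 and 32.9 at 100 or more but under 1000. It was 29.4 in the 107 CpGs at 1000 or more, where satellites prevail. Other classes of PBS level gave other orders. In the 50% to 60% class the first 4 losses were 19.9, 20.5, 20.2 and 16.6 points, and in the 90% to 100% class 31.5, 31.5, 33.1 and 32.6. These are descriptions.

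**Figure D5:**
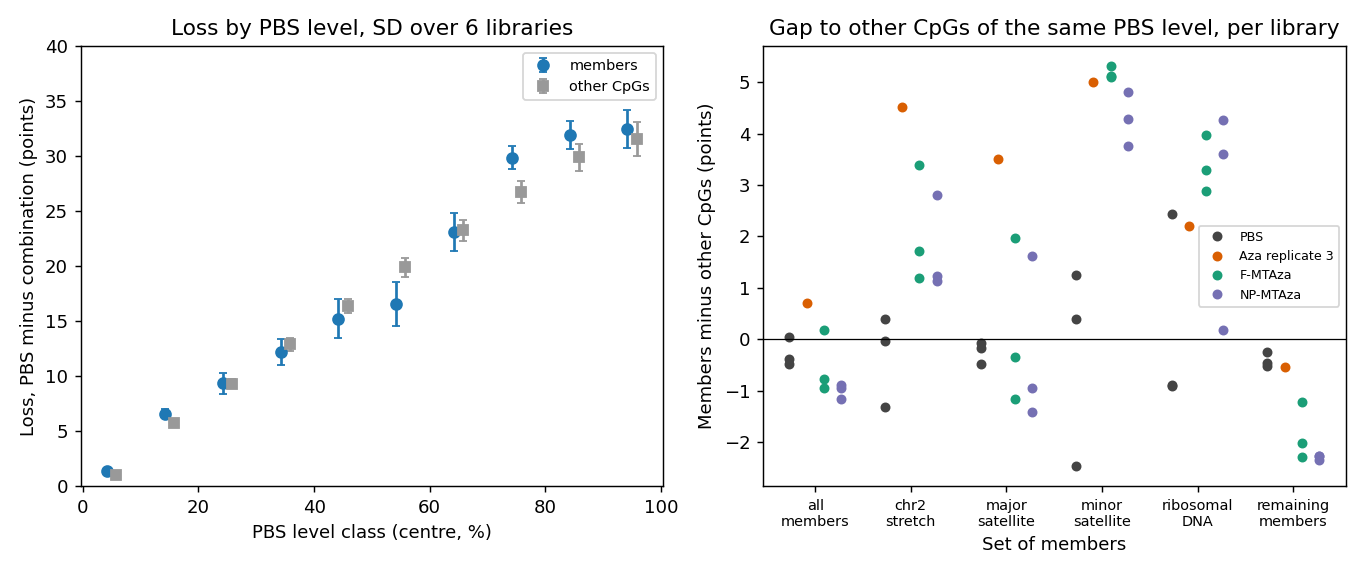
Left, loss from PBS to the combination libraries (y axis, points) by class of PBS level (x axis, percent) for members and other CpGs, with SD over 6 libraries. Right, the gap between members and other CpGs of the same PBS level (y axis, points) in each of 10 libraries by set of members (x axis), where treated minor satellite points lie between 3.75 and 5.32 and PBS points between -2.47 and 1.25.

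At the threshold, the CpGs just inside (100 reads in the shallowest library) were chr11:68011344 (94.6% in PBS, 61.2% in the combination libraries), chr11:76137592 (93.9%, 49.1%) and chr13:22113657 (2.15%, 0.309%). Those just outside (99 reads) were chr1:134114073 (97.1%, 68.3%), chr10:75328436 (92.7%, 54.1%) and chr10:118545695 (95.7%, 67.0%).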

How the data were processed

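DNAme was measured by RRBS in 12 libraries (4 groups of 3). Per the labels and the study's methods, Trim Galore 0.4.4 was used for trimming and Bismark 0.20.1 with Bowtie2 for mapping to mm9, and the authors merged both strands of a CpG and listed CpGs with at least 5 reads. No removal of duplicates is stated. The deposited files give methylated and total reads as a fraction, used here, and a percent that the authors rounded down, used only as a check.

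Members were nuclear CpGs with 100 or more reads in each of 10 libraries. Members and lists were chosen with earlier results of these data known. Sequence classes came from BLAST 2.17.0 (e-value under 1e-05) against 3 member clusters, namely the cluster of 1000 bp or more with the strongest tandem period (named major satellite from its period length), the chr2 cluster with a 120-bp period (minor satellite) and the cluster with most members (ribosomal DNA), and word copies from the median genome count of 17 words of 20 bases in the window 50 bases to each side of NCBI37 (samtools 1.23.1). Of 462349 listed positions on the reference, 462311 were the C of a CG. Libraries were compared by two-sided exact permutation of library means (scipy 1.17.1) and CpGs by a likelihood ratio test with Benjamini-Hochberg adjustment over all nuclear CpGs tested, with limma 3.58.1 (R 4.3.3) as an alternative. Tests were checked on simulated reads that varied by counting alone, so spread between libraries was not part of that check. Gene names came from GENCODE vM1. The satellite, ribosomal and box classes, and the density matching, were added after seeing the data. Named clusters were the chr2 stretch, the 10 with most reads, among those of 3 or more members the 5 largest and 5 smallest losses (PBS level of 20% or more) and the 3 highest and 3 lowest PBS levels, and those in listed multicopy genes. One cluster that this rule names is not reported here. Replicate numbers did not pair the libraries. Alternatives were read weighting, other depth, class and density limits, leaving out libraries, and other tests. Total CpG reads were 25336747 to 65817118 in the 10 libraries.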

Additional observations from a re-analysis of the deposited data

Results flagged for a closer look

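Aza replicates 1 and 2 were in no comparison above, and the members that stayed lowest elsewhere had high levels in them. At 139 members under 5% in the pooled combination libraries, the mean level was 31.64% over 39 listed members in Aza replicate 1 and 42.06% over 38 in Aza replicate 2. The PBS replicates averaged 1.67%, 4.13% and 1.63% there and Aza replicate 3 averaged 1.05%. By pooled reads the shares were 26.7% of 345 reads (95% Wilson interval 22.3% to 31.6%) and 41.7% of 333 reads (36.6% to 47.1%), so counting error does not reach the level of the other libraries. Over all members, levels in these 2 libraries correlated with those of the 10 at a median r of -0.0297 across 20 pairs (-0.105 to 0.0285), against 0.971 among the 10 across 45 pairs, as a description across CpGs. The cause was not tested.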

How the results depend on the processing

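Over 18 results and 270 alternatives, 241 kept the direction and the side of the threshold, or stayed within the spread or 1.5 times of a count. That total includes outcomes that were partly fixed. For the member mean, comparisons of 3 libraries with 3 cannot pass the threshold, so only their direction could change. The drop of the member mean and of the chr2 stretch kept both under all alternatives tried. Leaving out 1 library, the member mean fell by 22.9 to 24.0 points (7 treated), 22.9 to 23.9 (6 combination), 21.9 to 23.0 (F-MTAza), 23.8 to 24.9 (NP-MTAza) and 23.2 to 24.2 (Aza replicate 3), and NP-MTAza minus F-MTAza was -2.31 to -1.38. The stretch fell by 24.8 to 25.3. With a replicate block the 7 treated libraries were -23.5 points from PBS (exact permutation p = 0.0278, the smallest possible within blocks). The counts of called members were then 282, 411 and 0. Replicate numbers did not pair the libraries, with correlations of same-numbered deviations from -0.0845 to 0.0495. The block changed no other call. For Aza replicate 3 against PBS, the difference was -22.3 points weighted by reads, -25.2 at 50 reads and -27.8 over cluster means.

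Members minus other CpGs of the same level turned to 0.22 points (7 treated) and 0.13 (6 combination) with 300 or more pooled PBS reads, and to 0.25 and 0.0594 at 200 reads per member. It was 0.18 with Aza replicates 1 and 2. Over cluster means it was -2.49 and -2.76, and at 50 reads -1.16 in the combination libraries. Leaving out 1 library gave -0.48 to -0.11 and -0.67 to -0.32, passing the threshold without F-MTAza replicate 2 (-0.67, exact permutation p = 0.0179). The classes were examined after seeing the data. Leaving out 1 library gave 0.19 to 1.01 for the major satellite, 3.95 to 5.81 for the minor, 2.14 to 3.81 for ribosomal DNA, -1.66 to -1.35 for remaining members and 2.10 to 2.95 for the stretch, which missed the threshold without any 1 PBS library (exact permutation p = 0.0556 to 0.0833). The major satellite passed it with 300 or more PBS reads (2.16). Ribosomal DNA missed it at 0.42 with CpG density, 2.29 without NP-MTAza replicates 1 and 2 and 3.09 with the class from PBS replicate 3, as did remaining members (-1.43) with that class. At 25 points 926 and 1031 members were called in F-MTAza and NP-MTAza, where the members' share lay above that of all CpGs, and 0 and 0 by the F test. Leaving out 1 library gave 276 to 296, 390 to 429 and 0 to 0. Depth limits single CpGs at 100 reads to about 10 points either way.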
